A study of Mus musculus with 40 samples.

Results

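The hearts of 3 control mice were compared with the pancreas, kidney, ovary and small intestine of the same 3 mice, to describe which genes set the heart apart at baseline. The libraries were taken by their sample labels, as every library of the control genotype, Tg. These were 3 Tg Heart libraries against 12 libraries of Tg Pancreas, Tg Kidney, Tg Ovary and Tg Small Intestine, together 15 of the 40 libraries of the series. Tg mice were C57BL/6j animals at 60 days of age with the genotype Mdm2+/- Cag-CreERTg. They thus lacked 1 copy of Mdm2, the ubiquitin ligase that restrains p53, and carried a tamoxifen-responsive Cre recombinase under the ubiquitously active Cag promoter. Every library described here shares both alleles, so none stands for a wild-type tissue. In the series these mice are the controls for animals in which Mdm2 was deleted 24 hours earlier, which were left aside here. The labels used here do not say whether Tg mice received an inducing agent, and they do not say which chambers of the heart were taken. RNA was extracted with Trizol from flash-frozen tissue and sequenced on the Illumina platform.

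The heart is a striated muscle that contracts without pause. Its cardiomyocytes hold sarcomeres, in which myosin thick filaments pull on actin thin filaments when calcium binds troponin, and the calcium is released from and returned to the sarcoplasmic reticulum at every beat. The energy comes almost wholly from mitochondria, fed mainly by fatty acids. Atrial and ventricular muscle use partly different contractile proteins, and the atria also secrete natriuretic peptides. Endothelial cells, pericytes, fibroblasts and macrophages lie between the muscle cells, so a bulk library mixes them, and more cells of a type cannot be told apart from more RNA per cell.

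Each heart library held 15.3 to 16.3 M (mega) recovered reads, with 15.7 to 16.7 M in the kidneys, 14.4 to 17.4 M in the small intestines, 11.2 to 12.3 M in the ovaries and 9.87 to 11.6 M in the pancreata. The label was borne out by cardiomyocyte markers: all 8 that were chosen were higher in the heart, and together they took 4.01, 4.36 and 4.60% of reads in Tg Heart replicates 1, 2 and 3. Some libraries also held markers of other tissues. With each marker set against the median of its own 3 tissue libraries, cardiomyocyte markers stood at a median of 10.6% of the heart level in Tg Small Intestine replicate 1, 2.48% in Tg Ovary replicate 3 and 1.43% in Tg Small Intestine replicate 3, and at 0.302% or less in the other 9 libraries. In Tg Heart replicate 1, enterocyte markers stood at 3.21% of the intestinal level, against 0.416 and 0.0598% in replicates 2 and 3. Ovary markers in that heart stood at 10.8%, against 3.33 and 2.35%. Tg Ovary replicate 1 held pancreatic acinar markers at 33.2% of the pancreatic level. Ovary markers stood at 15.7% of the ovarian level in Tg Pancreas replicate 1, and kidney-tubule markers at 12.4% of the kidney level in Tg Small Intestine replicate 1. Kidney-tubule markers in the hearts stood at 1.96, 1.10 and 2.64%, highest in replicate 3. The part of these reads in each result was not tested. Results were therefore also computed without Tg Heart replicate 1, Tg Ovary replicate 1 and Tg Small Intestine replicate 1, a choice made after the data were seen, and some of the values that differ are given below as "without the 3 libraries". That fit still held Tg Ovary replicate 3, Tg Small Intestine replicate 3 and Tg Pancreas replicate 1. It was thus not free of markers of other tissues.

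**Figure D1:**
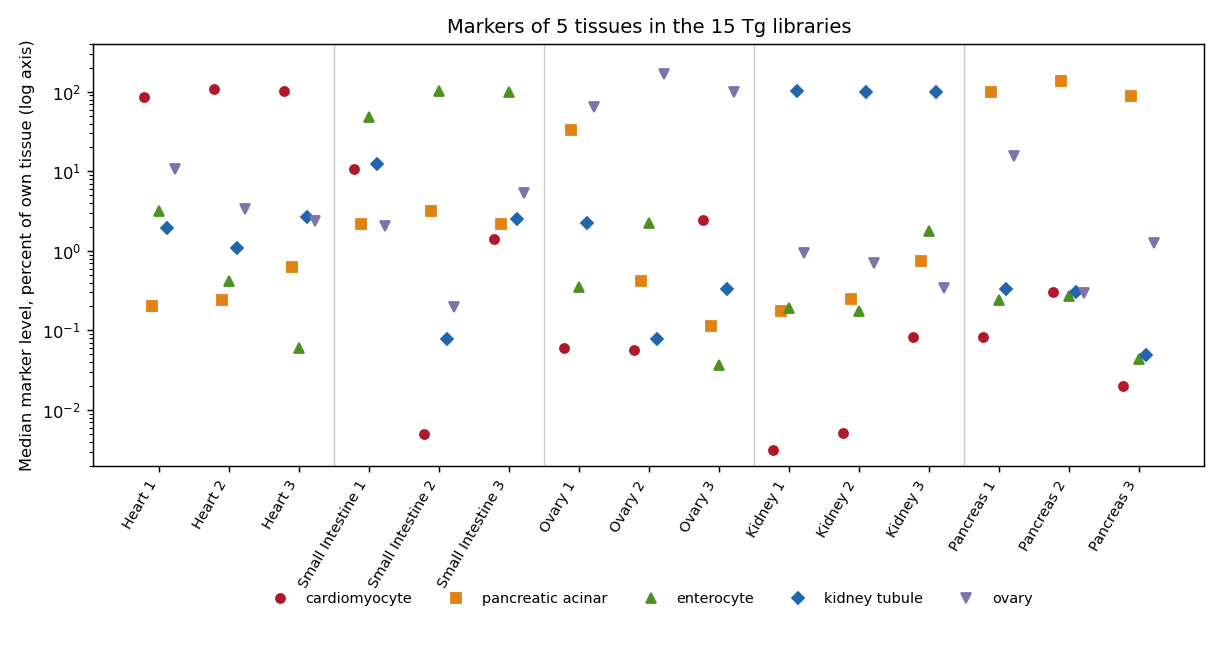
Median level of the markers of 5 tissues (log axis, percent of the median of the marker's own 3 libraries) in each of the 15 Tg libraries, with 1 symbol per marker list. Cardiomyocyte markers lie near 100% in the 3 hearts, at 10.6% in Tg Small Intestine replicate 1, and at or below 2.48% elsewhere.

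A gene was called against the mean of the 4 other tissues at a limma adjusted p below 0.05. It was called heart-enriched where it was higher than each of the 4 tissues by a log2 difference of at least 1 with each adjusted p below 0.05, and heart-depleted where it was lower than each by the same rule. Of 17070 genes tested, 4616 (27.0%) were higher and 5212 (30.5%) lower in the heart than the mean, with a median difference over all genes of −0.11. The heart-enriched genes numbered 999 (5.85%) and the heart-depleted genes 375 (2.20%). Without the 3 libraries the counts were 1011 and 482, with 946 and 342 genes shared. In 988 of the 999 the 3 hearts lay above all 12 other libraries, and in 343 of the 375 they lay below. Over all 17070 genes this held for 2224 and 1368, and among called genes it follows largely from the call rule. The enriched group was steep: 417 genes differed from every tissue by at least 2, 151 by at least 4 and 36 by at least 6 log2 units. Of the depleted genes 99 passed 2 and 0 passed 4. The tissue nearest to the heart for an enriched gene was the kidney for 318 genes, the ovary for 292, the small intestine for 280 and the pancreas for 109. For depleted genes it was the ovary for 163, the kidney for 102, the pancreas for 59 and the small intestine for 51. These nearest tissues rest on means that include the libraries with markers of other tissues given above. The part of such reads in these counts was not tested. Against single tissues the heart was higher than the pancreas for 5359 genes (31.4%), than the kidney for 4532 (26.5%), than the ovary for 3938 (23.1%) and than the small intestine for 4927 (28.9%). It was lower for 4188 (24.5%), 4171 (24.4%), 5602 (32.8%) and 5380 (31.5%) genes in the same order. The balance of higher and lower genes against a single tissue depended on the scaling. Against the pancreas, quantile normalisation gave 4313 higher and 4951 lower and median centring 4393 and 4964, and against the small intestine they gave 5602 and 4534 and 5306 and 4752, each the reverse of the order above. Against the ovary, median centring gave 4470 and 4463.

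The 10 most abundant genes took 16.3 to 19.4% of reads in the hearts, more than the 3.22 to 8.58% in the kidneys, the small intestines and Tg Ovary replicates 2 and 3. They took less than the 38.4 to 44.9% in the pancreata and the 22.1% in Tg Ovary replicate 1. The 999 enriched genes took 37.3, 43.5 and 40.7% of reads in the 3 hearts and 1.46 to 9.52% in the other libraries, a description that follows from how they were chosen. The mitochondrial cytochrome oxidase gene mt-Co1 took 4.75, 5.98 and 5.43% of reads. Ttn, which encodes the giant sarcomere spring titin, took 5.17, 5.69 and 4.82%. Myh6, the cardiac alpha myosin heavy chain, took 2.18, 2.24 and 2.45%, and Atp2a2, the calcium pump SERCA2, 1.19, 1.44 and 1.30%. Per kilobase of exon and per M reads (RPKM), Ttn stood at only 447 ± 37.5 (SD, n = 3), since its transcript is very long. On that scale the oxygen-binding protein gene Mb reached 4202 ± 521, Myh6 3405 ± 210, the ventricular light chain Myl2 2421 ± 343 and Atp2a2 2153 ± 201. Fabp3, the fatty acid carrier of heart muscle, and Slc25a4, the mitochondrial ADP/ATP carrier, stood at 1924 ± 346 and 1620 ± 191.

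Thick-filament genes had the highest median of the plotted gene lists. All 14 tested were higher in the heart than the mean of the other tissues, against 27.0% of all genes, and 13 were heart-enriched, against 5.85%. Their median difference was 8.26. Myh6 (GRCm38 chr14:54941921-54966927, minus strand) had 312795, 364087 and 376813 normalised reads in the 3 hearts and 8 to 37155 elsewhere, with a median of 160. The hearts agreed closely, and the highest other library was Tg Small Intestine replicate 1. The difference from the mean was 10.24 ± 1.91 (SE, adjusted p = 0.000505) and that from the nearest tissue, the small intestine, 7.99 ± 2.41 (adjusted p = 0.0115). Myl2, the regulatory light chain of ventricular myosin, had 58958, 74926 and 83672 normalised reads in the hearts and 0 to 7839 elsewhere, with a nearest difference of 7.97 ± 2.41 (adjusted p = 0.0116). The essential light chain Myl3 had 33042, 47900 and 48119 and elsewhere a median of 22.3. Mybpc3, the cardiac myosin-binding protein C that braces the thick filament, had 45054, 59386 and 51911 in the hearts, and elsewhere a median of 52.0 with a highest value of 5783. Its nearest difference was 7.33 ± 1.94 (adjusted p = 0.00518). Ttn had 739938, 926952 and 741518 in the hearts and 250 to 95890 elsewhere. For all of these genes the groups did not overlap, and the highest other library was again Tg Small Intestine replicate 1. With those 3 libraries left out the difference from the mean was 10.71 for Myh6, 10.69 for Myl2 and 9.73 for Mybpc3. The M-band protein Myom2 was also enriched and was nearest to the kidney, at 6.36 ± 1.92 (adjusted p = 0.0138). Myom3, the M-band protein of some skeletal fibres, was the exception: it was higher than the mean by 1.05 ± 0.31 (adjusted p = 0.0105), yet Tg Small Intestine replicate 2 held 276 normalised reads against 101, 141 and 119 in the hearts.

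**Figure D2:**
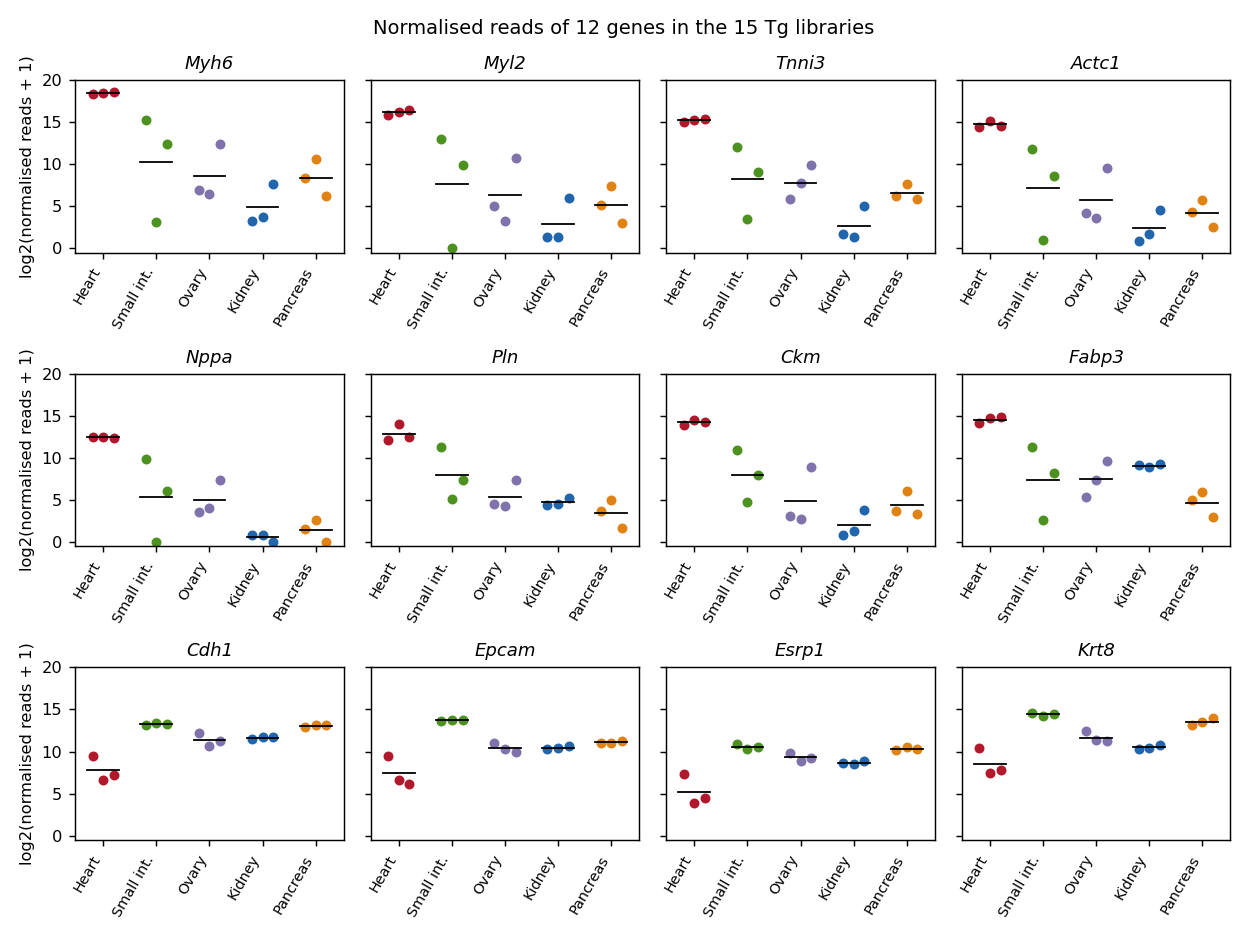
Normalised reads of 12 genes on a log2(reads + 1) axis, with 1 point per library ordered by replicate within each of 5 tissues and a black line at the tissue mean. The 8 muscle and fuel genes in the upper rows lie highest in the 3 hearts, and the 4 epithelial genes in the lowest row have their lowest tissue mean there, with Krt8 in Tg Heart replicate 1 at 1379 reads against 1223 in the lowest other library.

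Thin-filament genes followed closely, with 13 of 15 higher than the mean, 12 enriched and a median difference of 5.42. Actc1, cardiac alpha-actin, had 22371, 36029 and 24115 normalised reads in the hearts and a median of 18.0 elsewhere. The troponin subunits Tnnt2, Tnni3 and Tnnc1 were enriched by 6.08 ± 1.44, 6.83 ± 1.57 and 6.97 ± 1.84 over the small intestine (adjusted p = 0.0026, 0.00207 and 0.00518). They make up the calcium switch of the filament. Tpm1, tropomyosin 1, had 63664, 74903 and 80101 reads in the hearts but also 1108 to 12329 elsewhere, and differed from its nearest tissue by 3.48 ± 0.33 (adjusted p = 1.88e-06). The capping and length-setting proteins Lmod2 and Tmod1 were enriched by 5.98 ± 1.21 and 4.29 ± 0.62. Tnni1, the slow skeletal and fetal troponin I, stood at 10.3, 9.10 and 10.4 reads and did not pass the test (0.96 ± 0.46, adjusted p = 0.0929). Tpm2 also did not pass, and its 262 to 472 reads in the hearts fell within the range of 72.4 to 1496 elsewhere. Fhod3, a formin that organises cardiac actin, was higher than the mean by 4.09 but did not pass against the kidney (1.59, adjusted p = 0.117), which held up to 1206 reads, and it was enriched without the 3 libraries. Of 9 skeletal-muscle genes tested, 3 were higher, a share near the 27.0% of all genes, and the same 3 were enriched, namely Cacna1s, Tnnt1 and Tnni2, at 4.05, 3.14 and 2.26 over the mean. Without the 3 libraries 2 were enriched. Myh1, a fast skeletal myosin, had 0 reads in all 3 hearts.

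Genes of the Z-disc, where thin filaments are anchored, were enriched in 18 of 18 cases with a median of 7.11. The leading members were Csrp3 (9.01 over the mean), a mechanosensing LIM protein, Myoz2 (8.98), which tethers calcineurin, and the titin cap Tcap (8.63). Actn2, the crosslinker alpha-actinin 2, had 19532, 26167 and 26353 reads in the hearts and a median of 21.9 elsewhere. The intercalated-disc repeat proteins Xirp1 and Xirp2 were enriched by 6.72 ± 1.42 and 6.65 ± 1.49. All 10 dystrophin-complex genes were higher and 7 enriched, among them the sarcoglycan Sgca at 6.69 over the mean. Utrn, the widely expressed relative of dystrophin, was higher by only 0.64 ± 0.10 (adjusted p = 9.81e-05). The junctions that couple cardiomyocytes end to end were less distinct. Of 9 genes, 6 were higher and 2 enriched, Ctnna3 (alpha-T-catenin) and Cdh2 (N-cadherin), at 5.22 ± 0.58 and 3.55 ± 0.47. Desmoplakin, Dsp, was higher than the mean by 2.51 ± 0.14 but shared with the small intestine. Gja1, the gap-junction protein connexin 43, had 905 to 2196 reads in the hearts and up to 11696 in the ovary, and did not pass (0.79 ± 0.39, adjusted p = 0.0995). Without the 3 libraries 4 of the 9 were enriched, with Dsp and Pkp2 added.

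The promoters of sarcomere and calcium genes are shown for Mybpc3, Ttn and Casq2, the reticulum calcium buffer calsequestrin 2, because each holds the 10-base motif named for MEF2, a transcription factor of muscle. Each line gives the 250 bases before the RefSeq start on GRCm38.p6, written on the gene's own strand, with the MEF2 match in capitals. They lie at chr2:91117894-91118143 (plus strand), chr2:76982548-76982797 (minus strand) and chr3:102086165-102086414 (plus strand), and the matches begin 90, 166 and 69 bases before the start.
Mybpc3: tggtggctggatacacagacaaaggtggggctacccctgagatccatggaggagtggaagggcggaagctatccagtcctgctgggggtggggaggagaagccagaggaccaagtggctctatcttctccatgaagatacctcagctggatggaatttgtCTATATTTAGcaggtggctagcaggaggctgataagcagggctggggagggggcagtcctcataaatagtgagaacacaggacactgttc
Ttn: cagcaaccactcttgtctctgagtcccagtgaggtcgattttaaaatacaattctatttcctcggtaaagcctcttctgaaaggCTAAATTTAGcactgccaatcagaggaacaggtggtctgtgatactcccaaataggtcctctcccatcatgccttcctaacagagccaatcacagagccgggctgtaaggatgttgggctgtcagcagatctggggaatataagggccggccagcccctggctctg
Casq2: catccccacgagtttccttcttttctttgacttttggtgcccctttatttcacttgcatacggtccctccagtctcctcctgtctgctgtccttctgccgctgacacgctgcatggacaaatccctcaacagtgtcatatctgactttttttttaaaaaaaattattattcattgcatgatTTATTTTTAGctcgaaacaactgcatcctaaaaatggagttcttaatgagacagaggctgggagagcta

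Over all promoters of this length that belong to tested genes, 16567 promoters of 13110 genes, 1.76% held the MEF2 motif on either strand. Among heart-enriched genes the share was 4.86% (47 of 968 promoters), and among the 100 with the largest nearest difference, 75 of which had a RefSeq promoter, it was 17.4% (15 of 86). Among heart-depleted genes it was 0.765% (3 of 392). In the same order the letters TATAAA were found in 7.99, 9.50, 20.9 and 6.63% of promoters, GATAA, the core that GATA factors bind, in 16.6, 19.1, 29.1 and 13.5%, CATTCC, the core of TEAD factors, in 11.3, 13.2, 20.9 and 11.5%, and the serum-response CArG box in 1.17, 2.48, 3.49 and 1.53%. AAGGTCA, the half-site of oestrogen-related receptors, was in 3.23, 3.20, 6.98 and 2.55%, and AGGTGT, the core of T-box factors, in 10.6, 11.4, 10.5 and 14.5%. The median number of CpG dinucleotides was 13, 10, 4 and 12. A MEF2 match can contain TATAAA and a T-box match can overlap CAGGTG, and such a promoter was counted for both. The top 100 promoters thus differed from the rest also in CpG number, and these shares are descriptions of letters, not of binding.

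Calcium handling was enriched in 13 of 18 genes, and 17 were higher than the mean, with a median of 3.62. Ryr2, the channel that releases calcium from the reticulum, had 67531, 93190 and 74788 normalised reads in the hearts and 16.3 to 9013 elsewhere. It differed from its nearest tissue by 5.66 ± 1.10 (adjusted p = 0.000636). Hrc, Casq2 and Trdn, which sit with it in the reticulum, were higher than the mean by 8.17, 7.47 and 6.45. Atp2a2, which pumps the calcium back, is used by all tissues. Its 171042, 234116 and 199199 reads in the hearts stood against 4949 to 28168 elsewhere, a nearest difference of 4.22 ± 0.48 (adjusted p = 8.07e-06). Jph2, which holds the reticulum to the surface membrane, was nearest to the ovary at 3.70 ± 0.52. Fkbp1b, a ryanodine-receptor partner, had only 6.62 to 9.37 reads in the hearts and did not pass (−0.11 ± 0.21, adjusted p = 0.66).

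The micropeptides that restrain SERCA were split. Pln, phospholamban, the target of adrenergic signals in the ventricle, had 4394, 17012 and 5655 reads in the hearts and 2.34 to 2587 elsewhere, so replicate 2 stood far above the other hearts. Its nearest difference was 4.85 ± 1.24 (adjusted p = 0.00423). Sln, sarcolipin, found mainly in atria in the mouse heart, had 374, 391 and 333 reads against 0 to 73.2 elsewhere, with a nearest difference of 5.07 ± 0.96 (adjusted p = 0.000514). Mrln, the skeletal-muscle micropeptide myoregulin, had 1.89 to 10.1 reads and did not pass (0.19 ± 0.33, adjusted p = 0.646).

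Of 21 channel and conduction genes, 20 were higher than the mean and 12 enriched, with a median of 3.23. Kcnj11 and Abcc9, the subunits of the ATP-sensitive potassium channel of heart muscle, were enriched by 5.45 ± 0.89 and 3.25 ± 0.33. Kcnip2, Kcna5 and Kcnk3, which shape repolarisation, were enriched by 3.32 ± 0.54, 4.01 ± 0.58 and 3.24 ± 0.81. The pacemaker channel Hcn4, named here after its values were seen, was low at 106 to 184 reads but still above the 4.67 to 29.0 of other libraries. Kcnq1, the slow repolarising channel of larger mammals, did not pass (−0.78 ± 0.36, adjusted p = 0.0835), and the pancreas held up to 5453 reads against 579 to 653 in the hearts. With those 3 libraries left out Kcnq1 was lower than the mean by 0.65 on the log2 scale (adjusted p = 0.00589).

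Among 25 cardiac transcription factors, 19 were higher, 2 lower and 11 enriched, with a median of 2.15. Some of them were nearly absent from the other tissues. Nkx2-5, the homeobox factor of heart formation, had 339, 516 and 398 reads in the hearts and a median of 0 elsewhere, with a highest value of 30.1 in Tg Small Intestine replicate 1. Its nearest difference was 5.27 ± 0.82 (adjusted p = 0.000108). Tbx5 and Tbx20, T-box partners of that factor, were enriched by 5.34 ± 0.98 and 5.40 ± 1.14, and the histone methyltransferase Smyd1 of striated muscle by 6.07 ± 1.26. Irx4, a ventricular factor, had 204, 360 and 307 reads against 0 to 30.8. Hand2, Tbx18, Hopx, Mlip, Myocd and Mef2a were enriched too, the last by 1.04 ± 0.12 only. Other factors were shared with the tissues compared. Gata4, required for heart formation, had 1281, 1745 and 1368 reads in the hearts and 7.06 to 2505 elsewhere; it was higher than the mean by 1.68 ± 0.35 (adjusted p = 0.00132) but not than the intestine, where Tg Small Intestine replicate 2 was the highest library. Gata6 (1.29), Mef2c (1.61), Mef2d (1.31), Irx3 (2.49), Irx5 (2.15), Zfpm2 (2.15) and Hey2 (1.82) were likewise higher than the mean and not enriched. Isl1 and Hand1, factors of the embryonic heart, were lower than the mean, by 1.33 and 0.92 log2 units, with Hand1 at 0 reads in all 3 hearts. Gata5, Tbx2 and Tbx3 did not pass, at −0.66, −0.44 and 0.29. Without the 3 libraries 9 factors were enriched, Mef2a and Myocd falling short, and Gata5 was lower than the mean.

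Splicing regulators of muscle showed 8 of 9 higher and 4 enriched. Rbm24 and Rbm20, which set the exon content of titin and other sarcomere transcripts, were higher than the mean by 5.23 ± 0.54 and 4.67 ± 0.53. Srpk3 and Rbfox1 followed at 4.44 and 3.71. The broadly expressed Celf1 stood at 1947 to 2207 reads in the hearts and 1886 to 2858 elsewhere (−0.05 ± 0.07, adjusted p = 0.547).

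Natriuretic peptides marked the heart as an endocrine organ. Nppa, the atrial peptide, had 5824, 5673 and 5058 reads in the hearts and a median of 3.60 elsewhere, with 949 in Tg Small Intestine replicate 1. Its nearest difference was 6.53 ± 1.51 (adjusted p = 0.00221). Nppb, the brain-type peptide, which lies beside it on chromosome 4, had 2421, 3451 and 2968 against a median of 2.46, and differed by 6.42 ± 1.26 (adjusted p = 0.000663). Corin, the protease that cuts the Nppa precursor, was enriched by 5.85 ± 1.41 over the kidney. The clearance receptor Npr3 was enriched by 2.03 ± 0.51, whereas the signalling receptor Npr1, with 742 to 912 reads in the hearts and 66.0 to 1943 elsewhere, did not pass (0.66 ± 0.33, adjusted p = 0.102). Over the whole list, 11 of 13 tested genes were higher and 5 enriched, with a median of 1.79, and 10 were higher without the 3 libraries.

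The promoters of Nppa and Pln are shown because Nppa was held evenly and Pln unevenly by the 3 hearts. Capitals mark TATAAA and GATAA, the latter also on the other strand, where it reads TTATC. The windows are chr4:148000472-148000721 and chr10:53337436-53337685, both on the plus strand of GRCm38.p6 and both 250 bases before the RefSeq start. In Nppa, TATAAA begins 9 bases before the start and GATAA 121 bases before it, with TTATC at 75. In Pln, TATAAA lies 219 bases before the start and GATAA at 81 and, on the other strand, 183.
Nppa: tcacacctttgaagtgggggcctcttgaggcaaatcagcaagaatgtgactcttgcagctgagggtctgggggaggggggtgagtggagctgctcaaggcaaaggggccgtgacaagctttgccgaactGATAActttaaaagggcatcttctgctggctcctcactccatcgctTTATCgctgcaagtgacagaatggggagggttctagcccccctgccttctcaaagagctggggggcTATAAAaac
Pln: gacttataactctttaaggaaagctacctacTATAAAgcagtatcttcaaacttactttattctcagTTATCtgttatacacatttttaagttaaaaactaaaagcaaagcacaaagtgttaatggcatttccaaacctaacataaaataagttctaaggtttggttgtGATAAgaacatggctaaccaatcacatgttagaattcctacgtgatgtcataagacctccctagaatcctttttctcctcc

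Receptors of heart rate and force were partly enriched: 12 of 15 genes of adrenergic and related signalling were higher and 5 enriched, with a median of 1.58. Chrm2, the muscarinic receptor through which the vagus slows the heart, had 1046, 1651 and 1282 reads in the hearts and a median of 27.3 elsewhere, and differed from its nearest tissue by 2.28 ± 0.42 (adjusted p = 0.000389). The beta-1 receptor Adrb1 had 97.5, 162 and 123 reads against 4.00 to 38.7, with a nearest difference of 1.78 ± 0.34 (adjusted p = 0.000746). Adra1b, Adcy5 and the kinase subunit Prkaca were enriched by 2.25, 1.10 and 1.09. With those 3 libraries left out 4 of these genes were enriched, Adcy5 falling short.

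Mitochondrial genes were higher together, by smaller steps than sarcomere genes. All 37 genes grouped by name under respiratory complex I were higher than the mean. So were all 4 of complex II, 9 of complex III and 17 of complex V, and the 4 medians were 1.84, 1.74, 1.91 and 1.80. The enriched members numbered 27, 2, 7 and 12. The complex I group holds Ndufa4 and Ndufa4l2 by name, so not every member need be a subunit of that complex. All 13 genes encoded in the mitochondrial genome were higher, 12 of them enriched, with a median of 2.83, and without the 3 libraries 12 were higher and 11 enriched. Differences ran from 0.82 to 2.76 in complex I and from 1.26 to 3.57 among the mitochondrially encoded genes. mt-Co1 had 680195, 973234 and 835096 normalised reads in the hearts and 27997 to 293928 elsewhere, with the kidney nearest at 1.56 ± 0.44 (adjusted p = 0.00973). The 13 mitochondrially encoded genes together took 6.59, 8.16 and 7.0% of reads in the hearts and 2.68 to 3.05% in the kidneys.

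Complex IV, cytochrome oxidase, differed in which paralogue was used. Of 16 genes 13 were higher, 11 enriched and 2 lower, with a median of 2.04. The muscle forms Cox6a2, Cox8b and Cox7a1 were enriched by 6.34 ± 1.29, 5.99 ± 1.56 and 3.55 ± 0.69 (adjusted p = 0.000893, 0.00584 and 0.000648). Cox6a2 had 5656, 8609 and 8707 reads in the hearts and a median of 7.30 elsewhere. The forms used by most tissues moved the other way: Cox6a1 was lower than the mean by 1.05 ± 0.09 and Cox8a by 0.38 ± 0.09 (adjusted p = 7.69e-07 and 0.00292). Cox6a1 had 730, 667 and 745 reads in the hearts and 785 to 2703 elsewhere. Cox7a2 did not follow, being higher by 1.56 ± 0.11 (adjusted p = 1.98e-07).

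The same comparison was made for 22 pairs of paralogues, the first of each taken as the muscle or heart form. Values are the share of the first form in the summed reads per length. In 19 of 22 pairs the first form made up over 50% in all 3 hearts, and in 19 its share was higher in every heart than in every other library. The first count includes pairs whose first form also prevailed in every other tissue. Atp2a2 with Atp2a3 stood at means of 70.1 to 94.7% there, and Acacb with Acaca at 65.2 to 94.5%. Ckmt2, the mitochondrial creatine kinase of muscle, made up 99.2% ± 1.06 (SD, n = 3) of its pair with Ckmt1 in the heart, against means of 1.14% in the kidney, 8.94% in the pancreas, 10.8% in the small intestine and 26.2% in the ovary, where a single library reached 76.7%. Ckm, the cytosolic muscle form, made up 96.8% ± 1.29 with Ckb, and the enolase Eno3 95.2% ± 1.21 with Eno1. The phosphoglycerate mutase Pgam2 made up 96.4% ± 0.472 in the heart and already 51.8% ± 2.75 in the kidney. The adenine nucleotide carrier Slc25a4 made up 91.9% ± 1.37 with Slc25a5, and the insulin-responsive glucose transporter Slc2a4 91.5% ± 1.17 with Slc2a1. The pairs Acacb with Acaca, Hk2 with Hk1 and Prkaa2 with Prkaa1 did not single out the heart: Prkaa2 made up 76.4% ± 3.06 there and 78.8% ± 1.15 in the kidney.

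**Figure D3:**
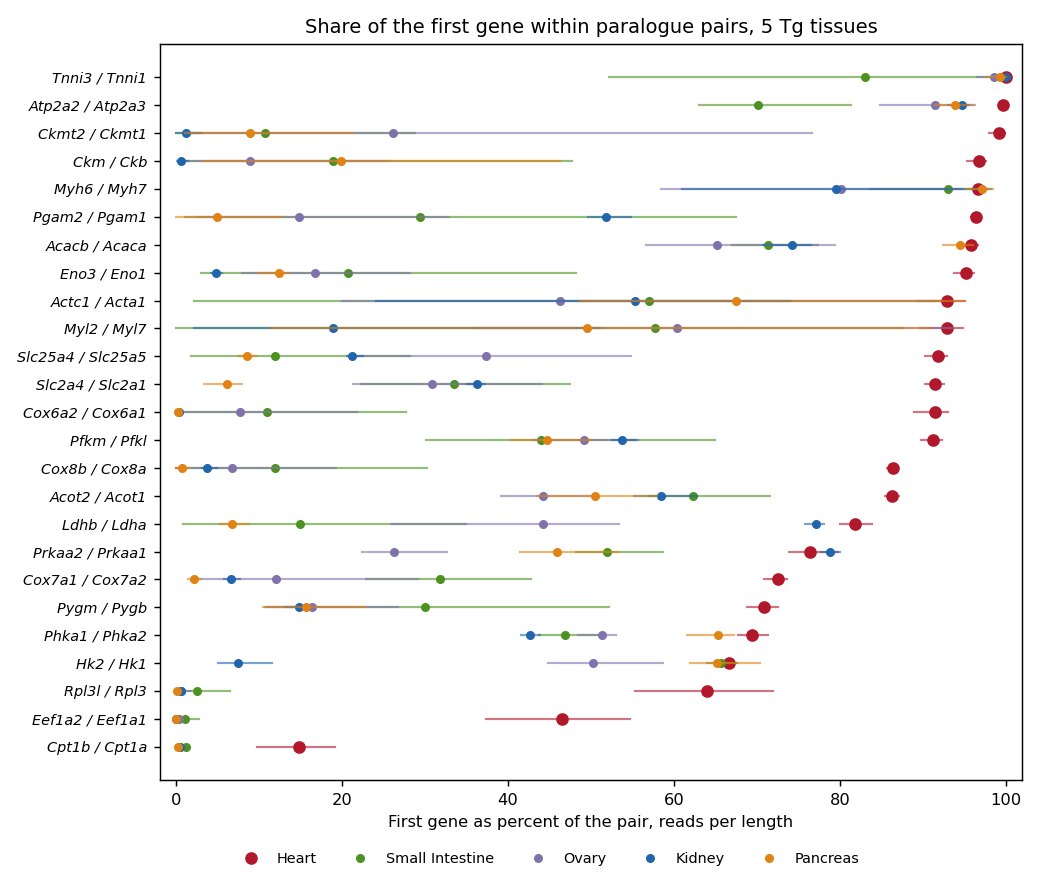
Share of the first gene in the summed reads per length of a paralogue pair (percent) in 5 Tg tissues, with a point at the mean of 3 libraries and a line from the lowest to the highest. The heart reaches over 90% for Ckmt2, Ckm, Pgam2 and Eno3, and 64.0% for Rpl3l, which is at or below 6.54% in every other library.

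Translation genes held 2 pairs of this kind. Rpl3l, the muscle form of ribosomal protein L3, had 1802, 2493 and 2367 reads in the hearts and a median of 9.75 elsewhere, a nearest difference of 5.86 ± 1.18 (adjusted p = 0.000803). It made up 64.0% ± 8.31 of its pair with Rpl3, against means of 0.0492 to 2.57% in the other tissues. Rpl3 itself had 2807, 1879 and 2513 reads and was lower than the mean by 1.56 ± 0.12 (adjusted p = 4.3e-07). Eef1a2, the muscle and neuron form of elongation factor 1A, had 10953, 15410 and 14906 reads against a median of 12.4, and made up 46.6% ± 8.71 of its pair. Eef1a1 was heart-depleted, with 21933, 15249 and 19665 reads against 51051 to 115571. Of 79 cytosolic ribosomal protein genes, 65 were lower than the mean, against 30.5% of all genes, 13 were not called and only Rpl3l was higher, with a median of −0.53. Their summed share of reads was 1.31, 1.07 and 1.31% in the hearts and 1.27, 1.11 and 1.36% in the kidneys. Cpt1b, the muscle gate of mitochondrial fatty acid entry, was enriched by 2.39 ± 0.39 but made up only 14.9% ± 4.79 of its pair with Cpt1a by these reads.

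Fatty acid uptake and oxidation was higher in 32 of 32 genes, and 20 were enriched, with a median of 2.22. Fabp3, the heart fatty acid carrier, had 18398, 26268 and 28488 reads in the hearts and a median of 225 elsewhere. Its nearest tissue was the kidney, at 5.44 ± 1.52 (adjusted p = 0.00908). Lpl, the lipase that frees fatty acids at the capillary wall, had 67491, 90840 and 84605 reads, with up to 10605 in the kidney. The transporter Cd36 was enriched by 3.07 ± 0.31 and the lipid-droplet coat Plin5 by 3.65 ± 0.85. Pdk4, which turns glucose carbon away from mitochondria, and Ucp3, a mitochondrial carrier, were enriched by 3.70 ± 0.64 and 4.12 ± 0.75. Without the 3 libraries 23 of the 32 were enriched. The citric acid cycle was higher in 20 of 20 genes, 13 of them enriched, with a median of 2.14, led by Got1 (3.84) and Idh2 (3.54).

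Glycolysis was mixed. Of 25 genes 19 were higher, 2 lower and 11 enriched, with a median of 1.80. The glycogen phosphorylase Pygm had 14108, 19299 and 16262 reads against a median of 137 and was enriched by 5.59 ± 0.89 (adjusted p = 0.000132). Eno3, Slc2a4 and Pfkm were enriched by 5.37 ± 0.83, 3.54 ± 0.65 and 3.65 ± 0.52. The general forms Eno1 and Pgam1 were lower than the mean, by 1.22 ± 0.11 and 0.67 ± 0.10. Ldha, which makes lactate, did not pass (0.06 ± 0.16, adjusted p = 0.765), and Ldhb, which favours its use, was higher by 3.76 ± 0.75 (adjusted p = 0.000824) though shared with the kidney. Energy shuttles went both ways, with 8 of 14 higher and 4 lower. Over all genes 27.0% were higher and 30.5% lower, so the lower share was near that of all genes. Ckmt2 and Ckm were enriched by 7.06 ± 1.92 and 6.20 ± 1.5. Gatm and Gamt, which make creatine, and Ckmt1 were lower than the mean by 2.74, 1.98 and 3.15 log2 units. Ckmt1 became heart-depleted without the 3 libraries: it had 609 reads in Tg Heart replicate 1 against 82.9 and 27.4 in the others. Ketone and branched-chain amino acid use was higher in 8 of 9 genes, and 1, the phosphatase Ppm1k, was enriched.

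**Figure D4:**
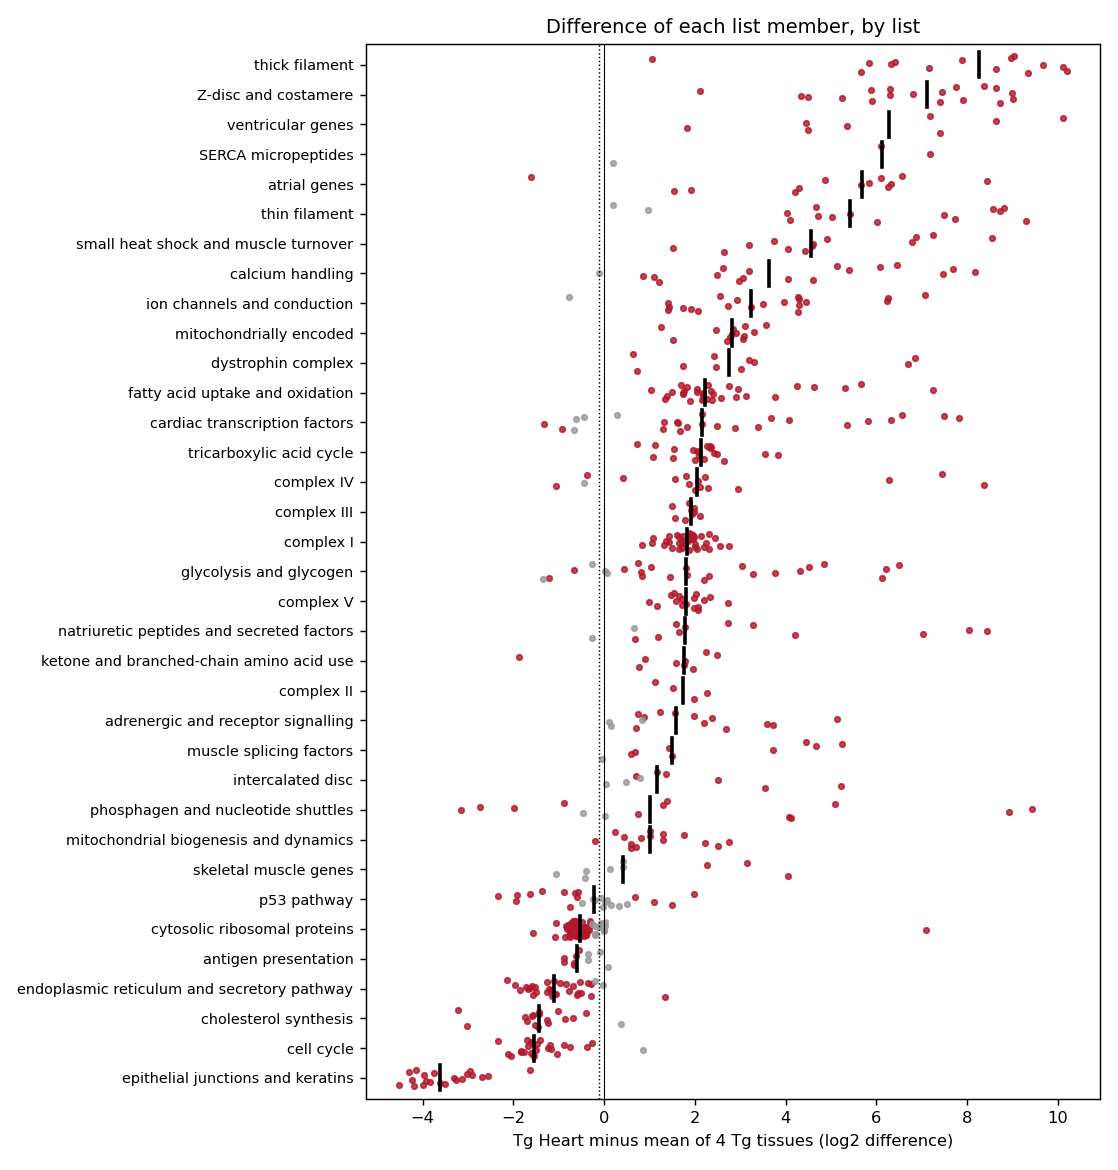
Difference of each tested gene between the hearts and the mean of the other 4 tissues (log2 difference, 1 point per gene, red where the limma adjusted p was below 0.05 and grey otherwise) by gene list, with a black bar at the list median. The dotted line marks the median of all genes tested, −0.11, and the medians run from −3.63 for epithelial genes to 8.26 for the thick filament.

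Mitochondrial regulators differed less than the machinery. Of 15 genes 14 were higher and 1 lower, with a median of 1.00, and the 2 enriched were the fusion proteins Mfn2 and Mfn1, by 2.13 ± 0.16 and 1.78 ± 0.19. Ppargc1a and Esrrg, coactivator and receptor of oxidative genes, were higher than the mean by 1.75 ± 0.19 and 2.51 ± 0.52 but shared with the kidney, which held up to 1956 and 1513 reads against at most 1470 and 897 in the hearts. Nrf1 was lower by 0.20 log2 units.

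Small heat-shock proteins and muscle ubiquitin ligases were higher in 13 of 13 genes and enriched in 12, with a median of 4.57. Trim54 and Trim63, sarcomere-bound ligases, were enriched by 6.72 ± 1.59 and 5.80 ± 1.19. Hspb7 had 14514, 19568 and 20436 reads against a median of 99.3, and Cryab, the desmin chaperone alpha-B-crystallin, 7021, 10065 and 9153 against a median of 458. Hspb1 was the member that was not enriched, and Tg Pancreas replicate 3 held 7618 reads of it. Among the 30 genes with the largest nearest difference, several belong to none of these groups. Ptgds, prostaglandin D synthase, had 9995, 7930 and 12871 reads in the hearts and a median of 40.9 elsewhere, and Hfe2, the iron regulator hemojuvelin, 2140, 2868 and 2391 against 1.60. Art1 and Adprhl1, both named for ADP-ribosylation, were enriched by 6.38 ± 1.37 and 6.34 ± 1.37, and Mb by 7.87 ± 2.36 (adjusted p = 0.0111).

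Markers of other cell types of the heart were also compared, with 27.0% of all genes higher and 30.5% lower than the mean. Endothelial markers were higher in 10 of 10 genes and enriched in 8, with a median of 2.19. Cdh5, the junction protein of endothelium, had 2563, 3712 and 3085 reads against 179 to 819, and differed from its nearest tissue by 2.22 ± 0.33 (adjusted p = 0.000112). Fabp4, the endothelial and fat-cell fatty acid carrier, was enriched by 1.79 ± 0.52 (adjusted p = 0.0107). Pericyte markers were higher in 6 of 7 and enriched in 3, Rgs5, Kcnj8 and Abcc9, the last 2 of which also belong to potassium channels. Macrophage markers were higher in 9 of 10 with a median of 0.99 and 0 enriched, led by F13a1 (2.49) and Cd163 (2.16), which mark resident cells. Fibroblast markers went both ways: Gsn and Dcn were enriched by 1.88 ± 0.38 and 1.10 ± 0.32, while Col1a1 and Col3a1, fibrillar collagens, were lower than the mean by 0.71 ± 0.23 and 1.27 ± 0.21. Of 8 smooth-muscle markers, 1 was higher and 1 lower, and Myh11 stood at 710 to 1730 reads in the hearts and 222 to 6636 elsewhere. Of 8 lymphocyte markers 0 were higher. The brown-fat marker Ucp1 had 428, 93.1 and 688 reads in the hearts, and up to 901 in Tg Kidney replicate 1, with Adipoq, a marker of any fat, at 262, 57.7 and 87.0. Of 9 adipocyte markers 3 were higher and 0 lower, near the 27.0% higher among all genes, and without the 3 libraries 2 were higher and 3 lower (median −0.44). The 3 higher markers were Ucp1, Cidea and Elovl3, at 3.69, 3.53 and 1.52 over the mean, and of these only Cidea was enriched. The summed share of reads of the 9 markers was 0.0269, 0.0059 and 0.0126% in the hearts. The part of fat cells in these values was not tested. Of 5 mesothelial markers 1 was higher, and of 10 glial and nerve markers 1 was higher and 2 lower, or 2 and 4 without the 3 libraries. With all libraries, no higher or lower share of the smooth-muscle, lymphocyte, mesothelial or glial and nerve markers exceeded that of all genes. Genes of antigen presentation were lower in 6 of 10 cases, against 30.5% of all genes, and 0 were depleted, with a median of −0.60. Their summed share of reads was 0.0694 to 0.0873% in the hearts and 0.317 to 0.417% in the small intestines. It was 0.0398 to 0.0614% in the pancreata, 0.0785 to 0.0882% in the kidneys and 0.0818 to 0.102% in the ovaries.

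Red-cell genes were uneven among the hearts. All 6 were higher than the mean and 5 enriched, with a median of 5.34. Hbb-bs, an adult beta-globin, had 62565, 150703 and 20939 reads in the hearts and 252 to 7030 elsewhere, a nearest difference of 4.35 ± 0.96 (adjusted p = 0.00197). The hearts thus differed several-fold among themselves yet all lay above the other libraries. Hba-a1 had 8883, 26911 and 3698, and Alas2, the first enzyme of haem synthesis in red cells, 5324, 12947 and 1697. Globin pairs such as Hba-a1 and Hba-a2 are nearly identical, so the split of reads between them is uncertain. Platelet genes, picked out after their values were seen, followed another order. Tubb1, the platelet tubulin, had 215, 206 and 36.9 reads, and Gp9, a platelet surface glycoprotein, 72.2, 62.7 and 11.3, with at most 33.9 and 6.17 elsewhere. The collagen receptor Gp6 had 89.1, 82.9 and 3.78 reads, and its enriched call was lost without the 3 libraries. The part of blood in these values was not tested.

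Depletion in the heart was led by epithelial genes. All 21 genes of epithelial junctions and keratins were lower than the mean, against 30.5% of all genes, and 16 were heart-depleted, against 2.20%, with a median of −3.63. Cdh1 (GRCm38 chr8:106603351-106670246, plus strand), E-cadherin, had 734, 96.1 and 150 reads in the hearts and 1688 to 10367 elsewhere, a nearest difference of −3.56 ± 0.55 (adjusted p = 0.000172). Esrp1, the splicing factor of epithelia, had 165, 14.2 and 21.7 against 373 to 1901. Epcam, the epithelial adhesion molecule, had 736, 100 and 71.9 against 1006 to 14354, and differed from the ovary by −2.94 ± 0.61 (adjusted p = 0.00131). In each, Tg Heart replicate 1 was the highest heart by far, and the groups still did not overlap. Over the list the hearts lay below all other libraries for 11 of the 21 genes, against 1368 of all 17070 genes. Krt8, a simple-epithelium keratin, was among those that overlapped, at 1379, 174 and 218 reads against 1223 to 24182. Ap1m2, a sorting adaptor of polarised cells, St14, a membrane protease, and the transcription factor Ehf were depleted by 3.56, 3.09 and 3.30 log2 units relative to the nearest tissue. Tmprss2, another membrane protease, had 296, 55.6 and 116 reads against 1283 to 4069. With those 3 libraries left out 18 of the 21 were depleted and the median was −4.31.

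The promoters of Epcam, Krt8 and Rab25, a GTPase of epithelial recycling, are shown because they hold CAGGTG, the E-box that the repressors ZEB and SNAIL bind. Capitals mark it on the gene's strand, and CACCTG where it lies on the other strand. CAGGTG was in 16.9% of all promoters, 19.3% of those of heart-enriched genes, 23.3% of those of the top 100 and 31.4% (123 of 392) of those of heart-depleted genes. The windows are chr17:87635729-87635978 on the plus strand, and chr15:102004343-102004592 and chr3:88548280-88548529 on the minus strand. In Epcam it lies 19 bases before the start and, on the other strand, 187. In Krt8 it lies on the other strand at 111, and in Rab25 at 53 and, on the other strand, 64.
Epcam: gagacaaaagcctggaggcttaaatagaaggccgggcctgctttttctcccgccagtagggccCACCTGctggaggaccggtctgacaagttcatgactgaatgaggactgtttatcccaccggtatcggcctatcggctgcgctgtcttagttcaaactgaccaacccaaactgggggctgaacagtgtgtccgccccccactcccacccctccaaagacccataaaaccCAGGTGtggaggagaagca
Krt8: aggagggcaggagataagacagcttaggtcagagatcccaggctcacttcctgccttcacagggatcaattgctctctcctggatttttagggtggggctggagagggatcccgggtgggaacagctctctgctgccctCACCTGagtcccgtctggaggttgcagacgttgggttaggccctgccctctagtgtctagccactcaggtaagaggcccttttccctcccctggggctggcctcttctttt
Rab25: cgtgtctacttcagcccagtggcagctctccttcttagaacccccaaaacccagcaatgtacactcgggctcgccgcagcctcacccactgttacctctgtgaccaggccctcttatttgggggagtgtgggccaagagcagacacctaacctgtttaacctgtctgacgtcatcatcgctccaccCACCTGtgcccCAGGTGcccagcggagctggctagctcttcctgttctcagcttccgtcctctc

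Secretory and biosynthetic genes were lower by smaller steps. Of 33 genes of the endoplasmic reticulum 30 were lower, 7 depleted and 1 higher, with a median of −1.11. Xbp1, a driver of secretory capacity, had 1693, 1345 and 1808 reads in the hearts and 1949 to 59655 elsewhere, highest in the pancreas. Sec61b, a subunit of the translocation channel, was depleted by 1.06 ± 0.22 log2 units relative to the kidney. Atf6, a reticulum stress sensor, was the exception, higher by 1.35 ± 0.10 (adjusted p = 2.67e-07). Of 17 cholesterol-synthesis genes 16 were lower and 4 depleted, among them Sqle, Lss and, outside the naming rule, Mvd. Fdft1 did not pass (0.37 ± 0.16, adjusted p = 0.0669) and was higher without the 3 libraries.

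Of 25 cell-cycle genes 24 were lower than the mean, with a median of −1.54, but only the thymidylate synthase Tyms was depleted against every tissue. Top2a, the topoisomerase of dividing cells, had 169, 53.6 and 59.6 reads in the hearts and 56.3 to 2486 elsewhere, highest in the small intestine. Cdk1 had 33.7, 21.2 and 12.3 against 13.5 to 335. Cenpf, a kinetochore protein, did not pass and lay in the opposite direction, with 241, 236 and 143 reads against a median of 92.2 (0.87 ± 0.38, adjusted p = 0.0667).

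Genes of the p53 pathway, the subject of the series, were described for the control hearts. Of 24 genes 4 were higher, 10 lower and 10 not called, against 27.0 and 30.5% of all genes, with a median of −0.22. None was depleted, and 2 were without the 3 libraries. Trp53 had 224, 177 and 153 reads in the hearts and 250 to 517 elsewhere, and was lower than the mean by 0.88 ± 0.12 (adjusted p = 5.83e-05). Mdm2, of which 1 copy is lost in all these mice, had 1069, 1140 and 1033 reads against 799 to 1476 and did not pass (0.06 ± 0.12, adjusted p = 0.726). Sesn1, a stress-induced regulator of growth signalling, was the enriched member, with 1808, 2402 and 2565 reads against 292 to 1161. Ccng1, a p53 target, had 9164, 11427 and 9384 reads and was higher than the mean by 1.49 ± 0.24 (adjusted p = 0.000169). Pmaip1, which encodes the death factor NOXA, was lower by 2.34 ± 0.39 (adjusted p = 0.000213), and Cdkn1a, the arrest factor p21, did not pass (0.51 ± 0.26, adjusted p = 0.113).

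The 3 hearts differed among themselves in a regular way. Among heart-enriched genes with a mean of at least 10 normalised reads, 985, the median ratio of the highest to the lowest heart was 1.37, and 89 (9.04%) exceeded 2-fold. Among heart-depleted genes, 327, the median ratio was 2.32 and 192 (58.7%) exceeded 2-fold, against 1.26 and 15.3% of all 14247 genes. Tg Heart replicate 1 was the lowest heart for 750 of the 985 enriched and the highest for 300 of the 327 depleted genes. Over all 14247 genes it was the lowest for 5078 and the highest for 5424. That library also held the intestinal and ovarian markers given above, and the part of those reads was not tested.

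**Figure D5:**
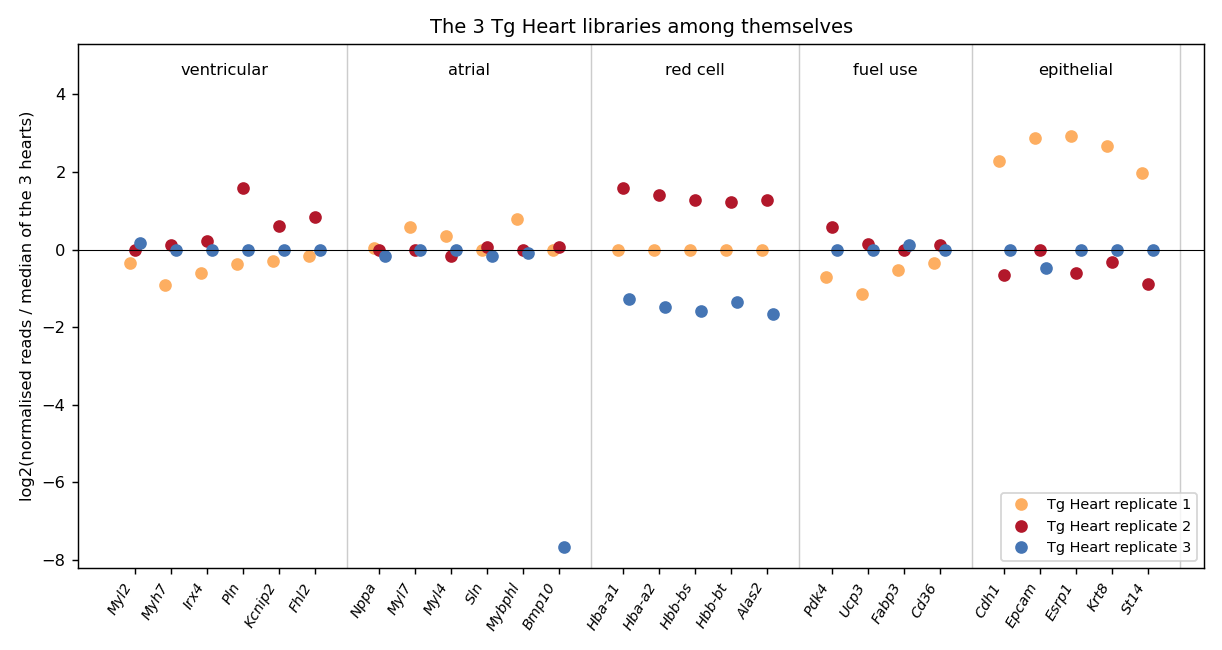
Normalised reads of each of the 3 Tg Heart libraries relative to their median (log2 ratio) for ventricular, atrial, red-cell, fuel and epithelial genes. Tg Heart replicate 2 lies highest for Pln and the globins, replicate 1 highest for the 5 epithelial genes, and replicate 3 holds 1.89 reads of Bmp10.

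Chamber genes also varied. Of 13 atrial genes 12 were higher than the mean and 9 enriched, with a median of 5.67, and of 8 ventricular genes 8 were higher and 7 enriched, with a median of 6.27. The atrial light chain Myl7 had 2056, 1369 and 1378 reads in the hearts, and Mybphl, an atrial and conduction myosin-binding protein, 374, 217 and 205, both highest in replicate 1. Myl4, the atrial essential light chain, had 2657, 1858 and 2085. Bmp10, which in the mouse is made mainly by the right atrium, had 380, 402 and 1.89 reads. It was higher than the mean by 4.20 ± 1.13 (adjusted p = 0.00631) but, with the groups overlapping, not enriched. Stard10 was lower than the mean, by 1.61 ± 0.28 log2 units. On the ventricular side Myh7, the slow beta myosin heavy chain, had 9550, 19713 and 18073 reads, lowest in replicate 1, and Irx4 followed the same order of lowest heart. Fhl2 had 3289, 6665 and 3695 and Kcnip2 1435, 2676 and 1766, both highest in replicate 2 as Pln was. Myh6 and Myh7, and Actc1 and Acta1, are close in sequence and may exchange reads, so that the share of Myh6 in its pair, 96.7% ± 0.897 per length in the hearts, is uncertain. Pdk4, which is known to rise with fasting, had 9549, 23364 and 15599 reads. Ucp3, another fasting-responsive gene, had 516, 1256 and 1130. Both were lowest in replicate 1 and highest in replicate 2. Over the 985 enriched genes with a mean of at least 10 normalised reads, replicate 1 was the lowest heart for 750 and replicate 2 the highest for 614. Over all 14247 genes these counts were 5078 and 4804. Either place was thus common among enriched genes and not particular to Pdk4, Ucp3, Pln, Fhl2 or Kcnip2. With 3 animals these orders are descriptions, and the labels used here give no feeding time or chamber composition.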

How the data were processed

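RNA from 15 Tg libraries (5 tissues of 3 mice) was analysed, with each library's group and mouse taken from the labels. The authors deposited log2 values, a variance-stabilising transform made over all 40 libraries. STAR 2.6.0b, DESeq2 and GRCm38 were used by the authors, per the submitters' processing notes. The counter, annotation release, strand setting and gene filter are not given in the sources used here. Values rose from a floor of 1.65 in steps that returned whole reads for 100.0% of entries (tolerance 0.01) over 18024 genes, of which 18003 matched GENCODE M21. These recovered reads, divided by size factors, are the normalised reads; RPKM used union exon length. Differences of the deposited log2 values are compressed for genes with few reads.

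Genes whose mean over the 15 libraries exceeded the floor by 0.5 (17070) were fitted with limma 3.58.1 in R 4.3.3 over the 15 libraries (10 residual degrees of freedom), with Benjamini-Hochberg adjustment over all genes and a threshold of 0.05. A simulated 4-fold change was recovered in 89% of genes against the mean, 83% as enriched and 78% as depleted. For a 2-fold change, the minimum for those calls, these were 73%, 13% and 12%. Each simulated gene had the same mean in all tissues before the heart was changed, and no library held markers of another tissue. Changed genes were not drawn from those with the fewest reads. The rates are therefore not those of calls between tissues that differ among themselves. Same-numbered libraries come from the same mouse per the labels; over 30 same-mouse pairs the correlation of deviations ranged from −0.180 to 0.420 (median 0.0588). Tables used Python 3.11.15. Promoters are from RefSeq; 8 motifs, those whose shares are given above, were searched on both strands.

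The comparison, its members and the gene lists were chosen with earlier results of these data known. Genes named are the 30 most enriched and 15 most depleted by nearest difference, all micropeptide, chamber, transcription-factor and paralogue-pair genes, and of other lists the largest differences and exceptions. Fhod3, Gp6, Gp9, Hcn4, Hspb1, Mvd, Myom3, Rab25, Tpm1, Tubb1 and Utrn fall outside this rule and were chosen after their values were seen. Some members are not reported here.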

Additional observations from a re-analysis of the deposited data

How the results depend on the processing

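With the mouse as a replicate block, 1003 genes were heart-enriched and 389 heart-depleted, against 999 and 375, and the block moved no count of calls by over 1.5 times. Fitting all 40 libraries together gave 3226 genes lower than the mean (against 5212), 2913 higher than the kidney (against 4532) and 3496 lower than the ovary (against 5602); the cause was not tested. A minimum log2 difference of 2 left 417 enriched and 99 depleted genes, and the adjusted p alone gave 1888 and 1091, since the rule itself is stricter or looser. Leaving out each library in turn gave 905 to 1030 enriched and 288 to 527 depleted genes, with 527 depleted without Tg Heart replicate 1. Counts against the mean then ranged from 3974 to 4749 higher and from 4029 to 5368 lower. Quantile normalisation gave 981 enriched genes (915 shared) and 305 depleted genes (282 shared). Library weights did not converge. Depth limits genes near the floor, whose differences are understated. Of 5326 comparisons of 205 of the named genes with alternatives, 5252 kept direction and side of the threshold, 27 lost and 35 gained a call, and 12 turned sign. None of the genes that turned had passed the test. Quantile normalisation gave 0.021 for Fkbp1b and −0.18 for Ldha, library weights gave −0.17 for Adipoq, and the fit without the 3 libraries that stand apart gave −0.44 for Adipoq and −0.018 for Tpm2. Leaving out each library gave −0.54 to 0.50 for Adipoq and −0.15 to 0.47 for Mrln. The cause was not tested. Without the 3 libraries that stand apart, further list counts moved by a few members, among them enterocyte markers from 1 to 6 lower of 10.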
